A study of Homo sapiens with 16 samples.

Results

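S100 calcium-binding proteins were followed by RNA-seq in human skin cell lines with lowered or raised YAP. The 10 members were taken by symbol from the deposited count table: S100A2, S100A4, S100A6, S100A7, S100A8, S100A9, S100A10, S100A11, S100A14 and S100A16. They are 10 of 26229 listed genes, and all 10 passed the filter on low counts that left 14673 genes for testing. S100 proteins are small proteins with a pair of EF hands, the helix-loop-helix motif that holds a calcium ion, and most of them act as dimers that grip partner proteins when calcium rises. In epidermis some members work inside the cell with annexins, myosin or transcription factors, while S100A7, S100A8 and S100A9 can be released as antimicrobial and alarm signals and are known for their rise in psoriasis and wounds. YAP is the transcriptional co-activator that the Hippo pathway restrains, and it acts on DNA mainly through TEAD factors.

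A431, a line from a human epidermoid carcinoma with abundant EGFR, and HaCaT, an immortalised human keratinocyte line, each gave 8 libraries. In each line 1 library came from cells with control siRNA (siCTRL), 3 from cells with siRNA against YAP (siYAP), 1 from cells with an empty expression vector (EV) and 3 from cells expressing YAP5SA. YAP5SA is a YAP mutant in which serines phosphorylated by the LATS kinases are replaced, so that it escapes Hippo restraint. siRNA was given in 2 rounds 24 h apart and RNA was taken 48 h after the second round. All cells grew in DMEM with fetal calf serum, and the time of harvest after vector transfection was not given in the sources used here. The samples are bulk RNA, so fewer cells that express a gene and less RNA per cell cannot be told apart. Each control group is a single library, so every comparison with a control rests on 1 value on that side, and the spread was taken from the triplicates.

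Libraries held 18115624 to 46791673 assigned read pairs. YAP1 matched the labels in all 16 libraries. It stood at 94.2 CPM in A431 siCTRL and at 5.04 to 6.995 CPM in the 3 siYAP libraries, and at 254 CPM in HaCaT siCTRL and 21.6 to 23.2 CPM in the 3 siYAP libraries. With YAP5SA it reached 1494 to 3244 CPM in A431, against 124 CPM with EV, and 7546 to 22240 CPM in HaCaT, against 423 CPM. All 10 keratinocyte markers examined, such as KRT5, KRT14 and TP63, were above 1 CPM in every library. The HaCaT YAP5SA libraries included the most different pairs, with a chi-square per degree of freedom of 70.6 to 143 between pairs of libraries, against 6.75 to 78.0 in the other triplicates. CPM below are counts scaled to library size with TMM factors. A log2 fold change is from the edgeR quasi-likelihood model with its standard error. FDR is the Benjamini-Hochberg adjusted p over all 14673 genes. Calls needed an FDR under 0.05 and a logCPM above 1. The logCPM is edgeR's log2 of a gene's average CPM over all libraries.

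All 10 members lie on chromosome 1. In the RefSeq gene order S100A10 and S100A11 are neighbours on the proximal side of the epidermal differentiation complex, the block of genes for the cornified envelope. On its distal side follow S100A9, S100A8, S100A7, S100A6, S100A4, S100A2, S100A16 and S100A14, with S100A12, S100A7A, S100A5 and S100A3 between some of them. RefSeq promoter windows on GRCh38.p14 were matched for all 10 members, with 14 annotated start sites in all. The 250 bases before each start were searched on both strands for the TEAD motif GGAATG, the AP-1 motif TGANTCA, the C/EBP motif TTGCNNAA and the TATA box, spelled TATAAA. The TATA box was present in 5 of the 14 windows, against 10.7% of 35116 promoter windows of the same length. These 5 belong to 4 members, since S100A8 has 2 overlapping windows that hold it.

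The windows below are the 120 bases before the start of the 5 members whose levels varied most over the libraries, printed 5′ to 3′ in the direction of the gene. Capitals mark a motif match, which is a TATAAA in all but S100A2, where it is the AP-1 motif. For S100A8, which has 3 annotated starts, the window with the match nearest to a start is shown.
S100A7, chr1:153460652-153460771, minus strand: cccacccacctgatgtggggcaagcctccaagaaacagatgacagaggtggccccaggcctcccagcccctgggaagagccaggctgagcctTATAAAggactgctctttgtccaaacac
S100A8, chr1:153391074-153391193, minus strand: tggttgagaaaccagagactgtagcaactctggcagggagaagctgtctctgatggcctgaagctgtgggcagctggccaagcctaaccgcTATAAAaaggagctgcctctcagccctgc
S100A9, chr1:153357734-153357853, plus strand: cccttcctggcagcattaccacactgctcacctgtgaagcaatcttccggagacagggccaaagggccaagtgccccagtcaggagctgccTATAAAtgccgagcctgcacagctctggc
S100A4, chr1:153545807-153545926, minus strand: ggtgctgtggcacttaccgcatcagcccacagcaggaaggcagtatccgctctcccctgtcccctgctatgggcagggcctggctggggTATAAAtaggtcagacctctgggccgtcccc
S100A2, chr1:153565845-153565964, minus strand: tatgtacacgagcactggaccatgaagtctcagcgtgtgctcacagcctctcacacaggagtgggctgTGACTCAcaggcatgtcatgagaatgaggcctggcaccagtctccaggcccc

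The first base of TATAAA lay 28 bases before the start of S100A7, 29 before the second start of S100A8, 29 before S100A9 and 31 before S100A4, all on the gene's own strand. TGACTCA lay 52 bases before the first start of S100A2, and 6.57% of all windows held the AP-1 motif. The TEAD motif occurred once, 247 bases before the first start of S100A16, and was present in 11.9% of all windows. The C/EBP motif occurred once, 33 bases before S100A11 on the other strand, and was present in 9.05% of all windows. No match of one kind overlapped a match of another kind. The letters describe these windows and say nothing of binding.

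The summed level of the 10 members was 1925 to 3029 CPM in A431 and 2347 to 3413 CPM in HaCaT, or 0.193% to 0.329% of the assigned pairs. S100A2, S100A6, S100A10, S100A11 and S100A14 made up 89.1% to 94.6% of that sum in every library. In A431 the leading member was S100A6 or S100A14 in each library. In HaCaT it was S100A6 in all 4 siRNA libraries and S100A2 in all 4 vector libraries. CPM do not correct for transcript length, so the share of a member in this sum also reflects its length.

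**Figure D1:**
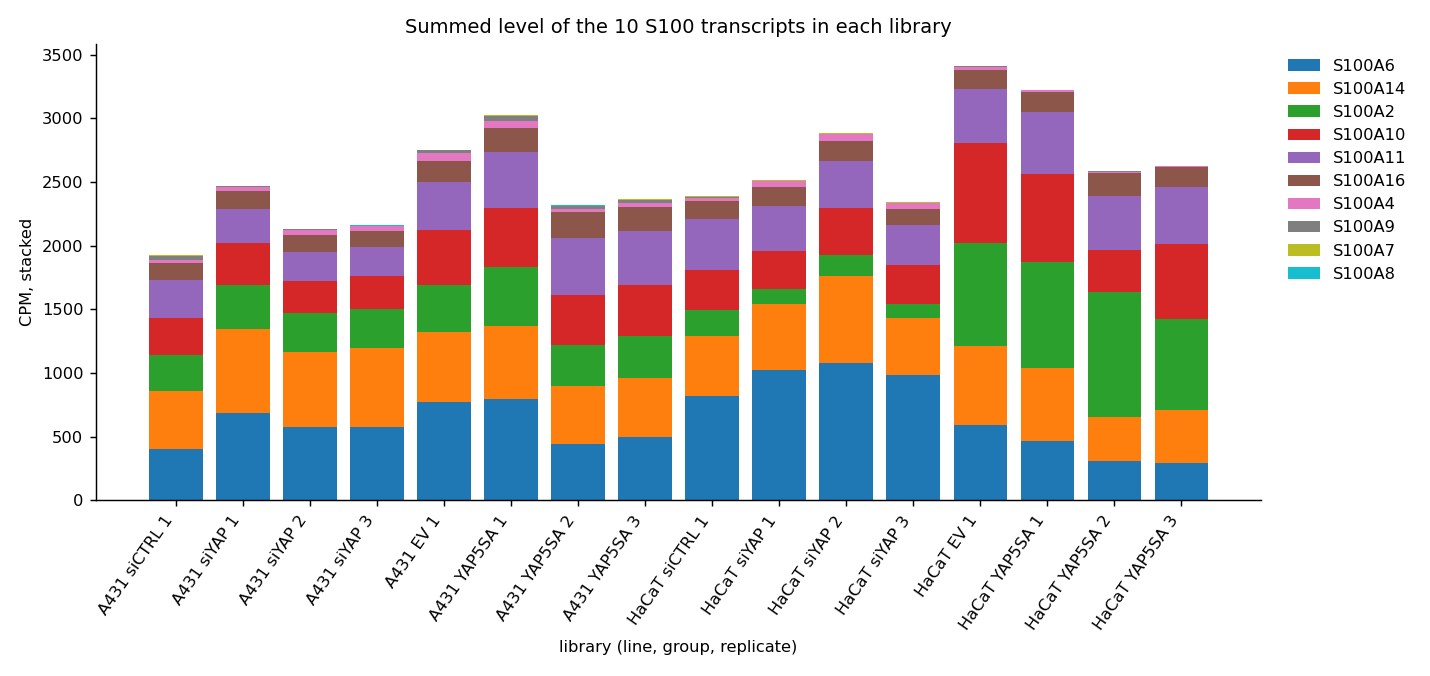
Summed level of the 10 S100 transcripts in each of the 16 libraries, as stacked CPM (linear axis from 0). The S100A2 band in the HaCaT EV and YAP5SA libraries is 714 to 981 CPM high, against 107 to 206 CPM in the HaCaT siCTRL and siYAP libraries.

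Levels were compared between genes as CPM per kb of transcript. In A431 the order of the medians over 8 libraries was S100A6 with 859 CPM per kb, S100A11 with 568, S100A2 with 544, S100A14 with 525, S100A10 with 399, S100A16 with 151, S100A4 with 59.6, S100A9 with 36.9, S100A8 with 3.84 and S100A7 with 1.53. In HaCaT it was S100A6 with 1048 CPM per kb, S100A2 with 761, S100A11 with 691, S100A14 with 461, S100A10 with 385, S100A16 with 148, S100A4 with 41.8, S100A7 with 8.24, S100A9 with 4.02 and S100A8 with 1.21. The ranges over libraries did not overlap between S100A10 and S100A16, or between S100A16 and S100A4, in either line. All other neighbours in each order overlapped. With the longest transcript in place of the one with the longest coding sequence, S100A2 moved down by a rank in both lines.

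S100A8 and S100A9 form calprotectin, a metal-binding dimer that starves microbes of zinc and manganese and signals through TLR4 and AGER. S100A9 fell with siYAP in A431, by about 4-fold, in all 3 libraries. It stood at 30.4 CPM in siCTRL, at 7.69, 7.99 and 6.24 CPM in siYAP, at 24.5 CPM in EV, and at 42.2, 19.0 and 23.6 CPM in YAP5SA. All siYAP libraries lay below every other A431 library. The log2 fold change was -2.05 ± 0.35 for siYAP (FDR 0.00648) and 0.20 ± 0.38 for YAP5SA (FDR 0.925).

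In HaCaT S100A9 was less abundant than in A431, and it fell with YAP5SA. Its level was 2.29 CPM in siCTRL, 0.774, 0.777 and 1.35 CPM in siYAP, 7.32 CPM in EV, and 3.05, 3.13 and 2.34 CPM in YAP5SA. The siYAP libraries lay below siCTRL and the YAP5SA libraries lay below EV, so that in this line the treated libraries were below their control in both arms. The log2 fold change was -1.21 ± 0.48 for siYAP (FDR 0.174), which was not called, and -1.37 ± 0.38 for YAP5SA (FDR 0.0308). The YAP5SA call was lost without replicate 3 (FDR 0.0779), with HaCaT fitted alone (FDR 0.0789) and when siCTRL and EV served together as controls (FDR 0.228).

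S100A8 was close to the detection limit. Its logCPM of 0.78 lay under the threshold of 1, so it could not be called in any comparison fitted over all 16 libraries. In A431 it held 32 counts in siCTRL, 21, 17 and 4 in siYAP, 51 in EV, and 158, 86 and 159 in YAP5SA. That is 1.57 CPM, then 0.441, 0.586 and 0.200 CPM, then 2.34 CPM, and then 6.80, 3.51 and 4.42 CPM. In these 8 libraries siYAP lay below siCTRL, and YAP5SA lay above EV, without overlap. The log2 fold change was -1.88 ± 0.69 for siYAP (FDR 0.129) and 1.06 ± 0.69 for YAP5SA (FDR 0.824). In HaCaT it ranged from 2 to 68 counts, with log2 fold changes of 0.05 ± 0.996 for siYAP (FDR 0.992) and -0.70 ± 0.64 for YAP5SA (FDR 0.476).

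Per kb, S100A9 exceeded S100A8 in all 16 libraries. The ratio was 4.72 to 27.6 in A431 with a median of 10.6, and 1.41 to 7.41 in HaCaT with a median of 3.21. Within A431 it was 4.72 to 5.47 in YAP5SA and higher in the other 5 libraries. The siYAP values rest on as few as 4 S100A8 counts.

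S100A7, or psoriasin, kills bacteria at the skin surface and binds the signalosome subunit COPS5. It fell with siYAP in A431, and in HaCaT edgeR did not call it against the control of either arm. In A431 it was 2.20 CPM in siCTRL, 0.189, 0.172 and 0.299 CPM in siYAP, 0.459 CPM in EV, and 0.946, 2.002 and 2.11 CPM in YAP5SA. The siYAP libraries were the lowest of the line and all YAP5SA libraries lay above EV. These levels are 5 to 76 counts per library.

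The log2 fold change of S100A7 in A431 was -3.36 ± 0.63 for siYAP (FDR 0.00994) and 1.88 ± 0.73 for YAP5SA (FDR 0.803). The siYAP call depends on the HaCaT libraries, which carry its logCPM of 1.496 over the threshold. Fitted on A431 alone the FDR was 0.0148 with a logCPM under 1, and with siCTRL and EV together as controls the log2 fold change was -2.62 (FDR 0.153).

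In HaCaT S100A7 was 8.35 CPM in siCTRL, 10.8, 6.31 and 9.32 CPM in siYAP, 1.27 CPM in EV, and 0.691, 0.172 and 0.306 CPM in YAP5SA. The siYAP libraries lay on both sides of siCTRL, and every vector library lay below every siRNA library. The log2 fold change was 0.08 ± 0.54 for siYAP (FDR 0.963) and -1.68 ± 0.60 for YAP5SA (FDR 0.0746). DESeq2 called the YAP5SA change, at -1.70 (FDR 0.0455). With siCTRL and EV together as controls edgeR called it at -3.58 (FDR 0.0114), though these controls stood at 8.35 and 1.27 CPM. The test of the difference between lines gave -3.44 ± 0.87 for siYAP (FDR 0.148) and 3.56 ± 0.95 for YAP5SA (FDR 0.0735), and neither passed. DESeq2 called both differences, with FDR 0.0121 and 0.0111. S100A7A, a near copy of S100A7 whose reads could be mistaken for it, held at most 4 counts in any library.

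**Figure D2:**
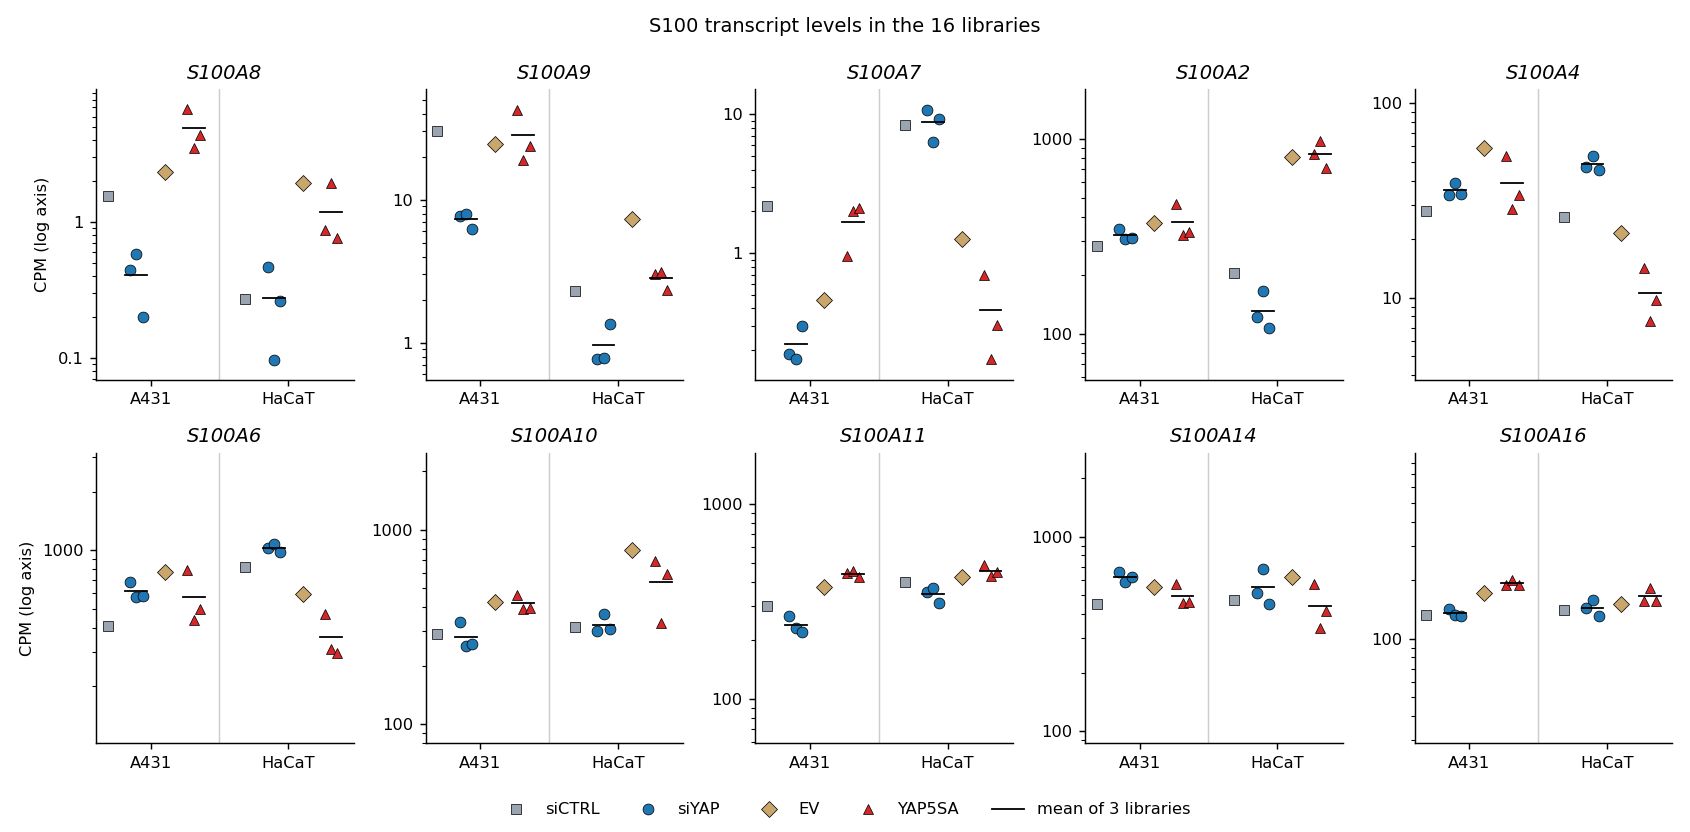
Level of each of the 10 S100 transcripts (CPM, log axis) in A431 and HaCaT libraries, with squares for siCTRL, circles for siYAP, diamonds for EV, triangles for YAP5SA and a bar at the mean of each triplicate. S100A9 and S100A7 in A431 are lowest in the siYAP libraries, while in HaCaT S100A7 is 6.31 to 10.8 CPM in the siRNA libraries and 0.172 to 1.27 CPM in the vector libraries.

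S100A2 is a nuclear member of basal keratinocytes and a known target of p53 and p63. In A431 it was 281 CPM in siCTRL, 345, 307 and 309 CPM in siYAP, 371 CPM in EV, and 463, 323 and 334 CPM in YAP5SA. These values overlap across the arms, with log2 fold changes of 0.19 ± 0.25 for siYAP (FDR 0.720) and 0.01 ± 0.25 for YAP5SA. In HaCaT it was 206 CPM in siCTRL, 121, 165 and 107 CPM in siYAP, 807 CPM in EV, and 836, 981 and 714 CPM in YAP5SA. All siYAP libraries were below siCTRL, and the YAP5SA libraries surrounded EV. The log2 fold changes were -0.65 ± 0.24 for siYAP (FDR 0.144) and 0.06 ± 0.25 for YAP5SA (FDR 0.886). EV alone stood 3.92-fold above siCTRL in HaCaT and 1.32-fold above it in A431, from 1 library each and with no test.

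S100A4 binds non-muscle myosin and is known from motile cells. In A431 its level was 27.9 CPM in siCTRL, 33.8, 39.0 and 34.0 CPM in siYAP, 58.7 CPM in EV, and 53.8, 28.6 and 33.6 CPM in YAP5SA. In HaCaT it was 26.0 CPM in siCTRL, 46.7, 53.4 and 45.3 CPM in siYAP, 21.6 CPM in EV, and 14.3, 7.60 and 9.76 CPM in YAP5SA. In both lines all siYAP libraries lay above siCTRL and all YAP5SA libraries lay below EV. S100A4 fell with YAP5SA in HaCaT, with a log2 fold change of -1.03 ± 0.32 (FDR 0.0474), while its change in A431 was -0.60 ± 0.32 (FDR 0.803). The siYAP changes were 0.90 ± 0.35 in HaCaT (FDR 0.167) and 0.35 ± 0.34 in A431 (FDR 0.590), and neither was called. The HaCaT call was lost without YAP5SA replicate 2 (FDR 0.0776), without replicate 3 (FDR 0.104) and with HaCaT fitted alone (FDR 0.0666).

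S100A6, or calcyclin, binds CACYBP and annexins and was among the most abundant members. It stood at 407 CPM in A431 siCTRL, 685, 577 and 579 CPM in siYAP, 776 CPM in EV and 795, 440 and 499 CPM in YAP5SA. In HaCaT it stood at 817 CPM in siCTRL, 1028, 1079 and 984 CPM in siYAP, 595 CPM in EV and 470, 312 and 297 CPM in YAP5SA. The siYAP libraries were above siCTRL in both lines, and the YAP5SA libraries were below EV in HaCaT. None of these changes was called, at 0.59 ± 0.31 (FDR 0.284) and 0.34 ± 0.30 (FDR 0.6004) for siYAP in A431 and HaCaT, and -0.43 ± 0.29 (FDR 0.829) and -0.73 ± 0.29 (FDR 0.101) for YAP5SA.

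S100A10 is the calcium-independent partner of annexin A2, with which it binds plasminogen activators at the cell surface, and S100A11 pairs with annexin A1. S100A11 had small spreads. In A431 it was 299 CPM in siCTRL, 267, 231 and 222 CPM in siYAP, 375 CPM in EV, and 441, 453 and 424 CPM in YAP5SA. In HaCaT it was 399 CPM in siCTRL, 353, 369 and 311 CPM in siYAP, 422 CPM in EV, and 488, 427 and 448 CPM in YAP5SA. All 6 siYAP libraries were below their control and all 6 YAP5SA libraries above it. The log2 fold changes were -0.32 ± 0.14 and -0.21 ± 0.14 for siYAP in A431 and HaCaT, and 0.23 ± 0.15 and 0.11 ± 0.14 for YAP5SA. None was called, with FDR values from 0.203 to 0.824.

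S100A10 ranged from 251 to 464 CPM in A431 and from 300.5 to 786 CPM in HaCaT. Its log2 fold changes were -0.05 ± 0.30 and 0.05 ± 0.30 for siYAP, and -0.03 ± 0.30 and -0.55 ± 0.29 for YAP5SA, in A431 and HaCaT respectively, and none was called. In HaCaT all 3 YAP5SA libraries, at 688, 331 and 589 CPM, lay below EV at 786 CPM. Per kb, the ratio of S100A10 to ANXA2, its annexin partner, was 0.412 to 0.602 in A431 and 0.0999 to 0.368 in HaCaT, so the ranges did not overlap. The ratio of S100A11 to ANXA1 was 0.925 to 1.55 in A431 and 0.644 to 2.59 in HaCaT.

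S100A14 and S100A16, neighbours in the genome and epithelial members that can pair with each other, moved least. S100A14 ranged from 451 to 658 CPM in A431 and from 340.0 to 685 CPM in HaCaT. S100A16 ranged from 131 to 199 CPM in A431 and from 131 to 182 CPM in HaCaT, and it had the smallest spread of the 10 members, with an SD of 0.211 on the log2 scale after each line's mean was subtracted. That SD was 1.38 for S100A7, 1.02 for S100A8, 0.985 for S100A2, 0.939 for S100A9 and 0.789 for S100A4. Neither was called for siYAP against siCTRL or for YAP5SA against EV in either line.

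Counted together, siYAP in A431 called 2 of the 10 members, S100A7 and S100A9, both lower, where 5.6% of all tested genes were called in either direction. The count was 1, S100A9, with A431 fitted alone, where the logCPM of S100A7 was under 1. In HaCaT siYAP called 0 of 10, against 5.67% of all genes. There, edgeR gave 3 members and 2997 of all 14673 genes an unadjusted p under 0.05, and DESeq2 also called 0 members. Over both lines siYAP called 2 of 10, against 13% of all genes. These were again S100A7 at -1.64 ± 0.41 (FDR 0.0198), for which HaCaT alone gave 0.08, and S100A9 at -1.63 ± 0.30 (FDR 0.00419), which was below siCTRL in 6 of 6 libraries. The median log2 fold change of the members was -0.01 in A431, 0.05 in HaCaT and -0.12 over both lines, beside 0.03, 0.03 and 0.04 for all tested genes. With siCTRL and EV together as controls, HaCaT siYAP called S100A2 and S100A9 lower and S100A4 higher. In HaCaT siCTRL and EV stood at 206 and 807 CPM for S100A2, 2.29 and 7.32 CPM for S100A9, and 26.0 and 21.6 CPM for S100A4. The joint control thus mixes siRNA and vector, and the share of all genes called under it is not given here.

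YAP5SA in A431 called 0 of 10 members, and 0% of all 14673 genes were called in that comparison. YAP1 itself, at 4.36 ± 0.65 (FDR 0.197), was not called there either, so a count of 0 does not show that members were unchanged. edgeR gave 1 member, S100A7, and 828 of all genes an unadjusted p under 0.05, and DESeq2 called 0 members. In HaCaT YAP5SA called 2 of 10, S100A4 and S100A9, both lower, against 13.6% of all genes. The median log2 fold change of the members there was -0.63, beside 0.01 for all tested genes, and 7 of 10 had a negative sign. Without HaCaT YAP5SA replicate 1, S100A6, S100A7 and S100A14 were also called lower, and without replicate 3 neither S100A4 nor S100A9 was called. Over both lines YAP5SA called 0 of 10, against 2.04% of all genes. There, edgeR gave 3 members and 3134 of all genes an unadjusted p under 0.05, and DESeq2 called 1 member, S100A4. The share of all genes that DESeq2 called is not given here. In edgeR S100A4 was at -0.82 ± 0.23 (FDR 0.0731). A replicate block takes same-numbered YAP5SA libraries of both lines as pairs. With it edgeR called 2 of 10, S100A4 at -0.87 ± 0.10 (FDR 0.000810) and S100A6 at -0.61 ± 0.09 (FDR 0.00338), against 9.39% of all genes.

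The difference of the siYAP effect between A431 and HaCaT was called for 0 of 10 members, against 0.17% of all genes, and that of the YAP5SA effect for 0 of 10, against 0.0886% of all genes. edgeR gave 2 members an unadjusted p under 0.05 in each, beside 1690 of all 14673 genes for siYAP and 3280 for YAP5SA. For the siYAP effect these members were S100A2 and S100A7. For the YAP5SA effect they were S100A7 and S100A9, with S100A9 at 1.57 ± 0.55 (FDR 0.130). DESeq2 called 1 member, S100A7, in each. The percentages above are from edgeR, and the share of all genes that DESeq2 called is not given here. The replicate block across YAP5SA libraries left the edgeR count for the YAP5SA effect at 0, against 5.29% of all genes.

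**Figure D3:**
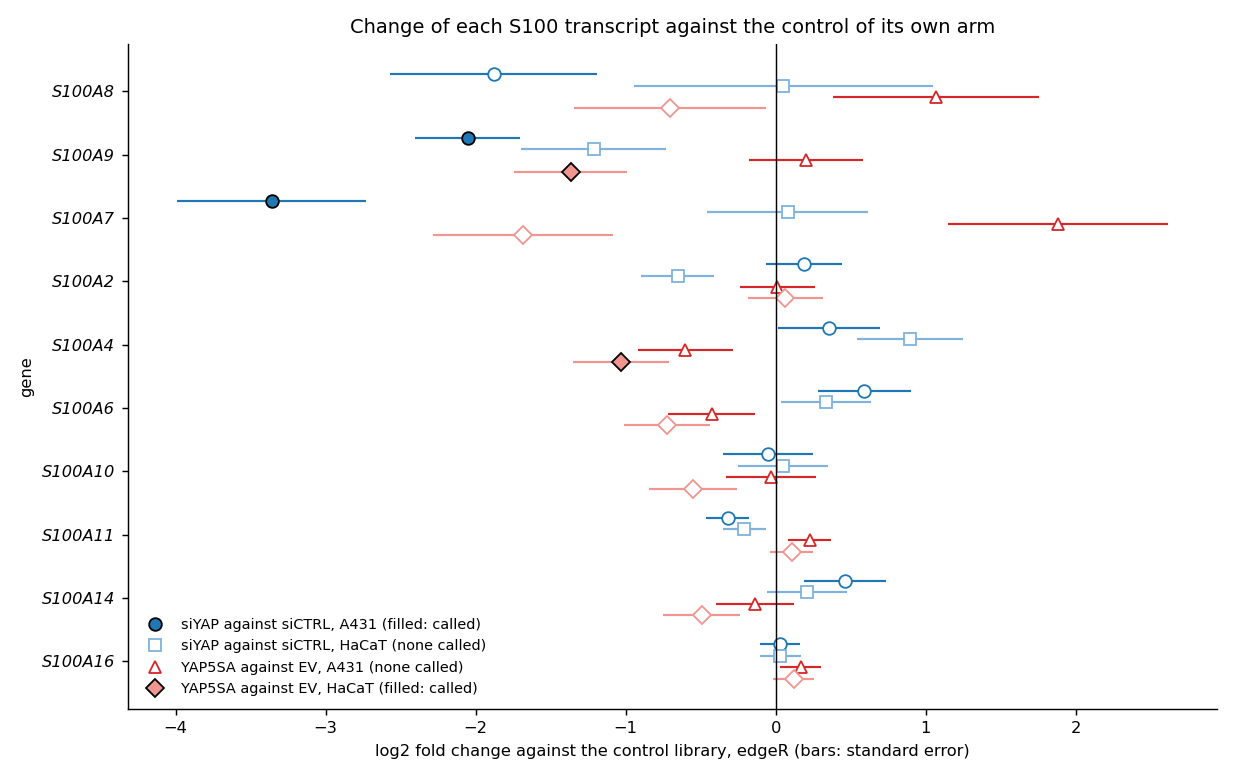
Log2 fold change of each S100 transcript (edgeR, with its standard error) for siYAP against siCTRL and YAP5SA against EV in A431 and HaCaT, with filled symbols for called values. S100A9 and S100A7 with siYAP in A431 and S100A9 and S100A4 with YAP5SA in HaCaT are the called values, and all are below 0.

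YAP5SA and siYAP, the only triplicates that can be compared within a line, differ in YAP and also in the agent transfected, so these cannot be told apart in a direct comparison. In A431 YAP5SA exceeded siYAP in 4 called members of 10, against 34.6% of all genes. They were S100A7 at 2.99 ± 0.51 (FDR 0.000670), S100A9 at 1.94 ± 0.28 (FDR 0.000186), S100A11 at 0.87 ± 0.10 (FDR 4.62e-05) and S100A16 at 0.51 ± 0.10 (FDR 0.00124). S100A8 differed by 3.52 ± 0.52 (FDR 0.000250) but was under the logCPM threshold. S100A7 passes that threshold only through the HaCaT libraries. With A431 fitted alone S100A7 was at 2.99 (FDR 0.00132) with a logCPM under 1 and was not called, while S100A8 at 3.52 (FDR 0.000436) and S100A10 at 0.58 (FDR 0.00852) were. S100A16 stood at 193 ± 5.60 CPM with YAP5SA and 135 ± 5.58 CPM with siYAP (SD, n = 3 each), and EV at 172 CPM also lay above siCTRL at 133 CPM.

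In HaCaT 7 members of 10 were called, against 60% of all genes. YAP5SA exceeded siYAP for S100A2 at 2.69 ± 0.19 (FDR 6.44e-08), S100A9 at 1.52 ± 0.33 (FDR 0.00119), S100A10 at 0.72 ± 0.21 (FDR 0.00866) and S100A11 at 0.40 ± 0.10 (FDR 0.00342). It was lower for S100A7 at -4.47 ± 0.46 (FDR 1.98e-06), S100A4 at -2.20 ± 0.24 (FDR 3.93e-06) and S100A6 at -1.52 ± 0.21 (FDR 3.36e-05). S100A8 differed by 2.06 ± 0.56 (FDR 0.00524) but was under the logCPM threshold. The triplicates of S100A10 overlapped, with 331 CPM in the lowest YAP5SA library and 368 CPM in the highest siYAP library.

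The control libraries of the 2 arms also stood apart, though each is 1 library and no test was made. EV against siCTRL in HaCaT was 3.92-fold for S100A2, 3.19-fold for S100A9, 2.50-fold for S100A10 and 0.152-fold for S100A7. In A431 it was 0.208-fold for S100A7, 2.11-fold for S100A4 and 1.91-fold for S100A6. When siYAP was expressed relative to siCTRL and YAP5SA relative to EV before they were compared, a comparison chosen after the data were seen, 1 member was called in each line. In A431 this was S100A7 at 5.24 ± 0.99 (FDR 0.0295), again with a logCPM that HaCaT carries over the threshold, against 1.53% of all genes, and S100A9 was at 2.26 ± 0.54 (FDR 0.0543). In HaCaT it was S100A4 at -1.93 ± 0.48 (FDR 0.0262), against 9% of all genes, while S100A2 was at 0.72 ± 0.36 (FDR 0.215), S100A7 at -1.76 ± 0.83 (FDR 0.189), S100A9 at -0.15 ± 0.64 and S100A10 at -0.60 ± 0.42. The signs of S100A9 and S100A10 in HaCaT thus turned. That of S100A8 in HaCaT, under the logCPM threshold, turned as well, to -0.75 ± 1.19 (FDR 0.737).

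**Figure D4:**
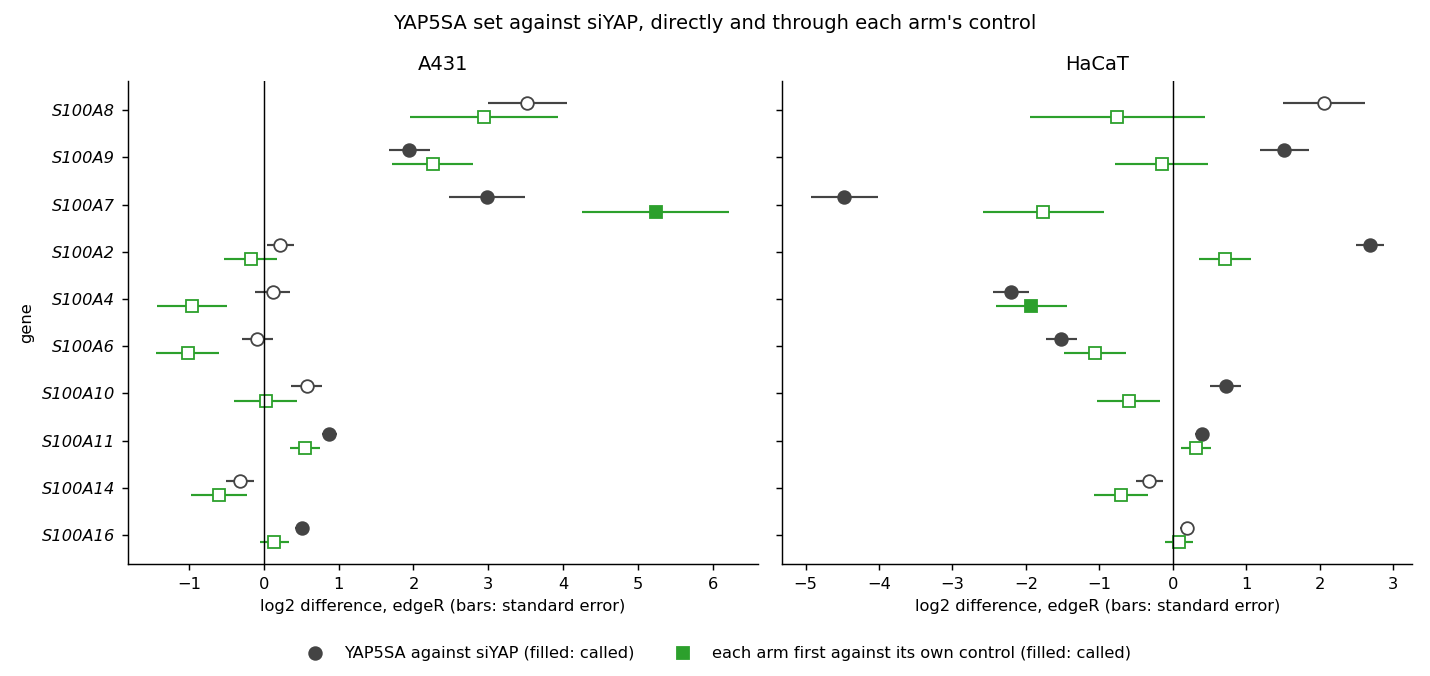
Log2 difference of each S100 transcript between YAP5SA and siYAP (edgeR, with its standard error), taken directly (circles) and relative to each arm's own control (squares), with filled symbols for called values. Filled squares remain for S100A7 in A431 and S100A4 in HaCaT.

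Markers of other cell types moved with the arms as well. The summed level of 8 fibroblast markers was 21.5 to 27.9 CPM in the HaCaT siRNA libraries and 0.668 to 1.89 CPM in the HaCaT vector libraries. Over all HaCaT libraries, LUM reached at most 9.28 CPM, DCN 14.2 CPM and COL1A2 0.0256 CPM. The sum of 5 endothelial markers in A431 was 33.8 CPM in siCTRL, 18.3 to 22.1 CPM in siYAP, 5.92 CPM in EV and 3.88 to 4.73 CPM in YAP5SA. In HaCaT it was 59.1 CPM in siCTRL, 16 to 19.8 CPM in siYAP, 2.1 CPM in EV and 1.52 to 2.46 CPM in YAP5SA. KDR was at most 0.172 CPM. CDH5, at 0.127 to 51.8 CPM over the libraries, had the widest range of these 5. In HaCaT CDH5 was called lower with siYAP at -2.03 ± 0.28 (FDR 0.00148). At the low level of the HaCaT vector libraries it was called higher with YAP5SA than with EV, at 2.35 ± 0.64 (FDR 0.0304). Set against siYAP in HaCaT, YAP5SA was lower at -4.24 ± 0.27 (FDR 2.95e-08). The sum of 6 melanocyte markers was 45.2 CPM in HaCaT siCTRL and 104 to 118 CPM in siYAP, with TYR at 0 in all libraries. MITF, at 32.3 to 116 CPM, reached far above the other 5 markers and was called higher with siYAP in HaCaT at 1.34 ± 0.26 (FDR 0.00970). The keratinocyte sum was 3180 to 4300 CPM in the A431 siRNA libraries and 5170 to 5840 CPM in the vector libraries, and 4770 to 5560 and 6530 to 9020 CPM in HaCaT. Their part in the S100 differences was not tested.

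Between the lines, averaged over the 4 treatments, 5 of 10 members were called, against 60.6% of all genes. S100A9 was higher in A431 at 2.92 ± 0.22 (FDR 7.07e-08) and S100A4 at 0.74 ± 0.17 (FDR 0.00140). S100A7 was lower in A431 at -1.66 ± 0.32 (FDR 0.000442), S100A10 at -0.39 ± 0.15 (FDR 0.0332) and S100A11 at -0.29 ± 0.07 (FDR 0.00282). The S100A10 call was lost on leaving out any 1 of 4 libraries, A431 siYAP replicate 2 or 3, HaCaT siYAP replicate 2 or HaCaT YAP5SA replicate 3, with FDR values of 0.0502 to 0.0533. The replicate block added S100A6 at -0.175 ± 0.07 (FDR 0.0375), against 63.4% of all genes. The averages hide treatments that differ: S100A7 was 8.81 ± 2.29 CPM in HaCaT siYAP and 0.2203 ± 0.0691 CPM in A431 siYAP, but 0.390 ± 0.2696 CPM in HaCaT YAP5SA and 1.69 ± 0.64 CPM in A431 YAP5SA (SD, n = 3 each). S100A4 was 48.5 ± 4.3 CPM in HaCaT siYAP and 35.6 ± 2.9 CPM in A431 siYAP, but 10.5 ± 3.4 and 38.7 ± 13.3 CPM with YAP5SA.

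S100A8 and S100A9 are best known from neutrophils and monocytes. The summed level of 10 leukocyte markers was 85.1 to 174 CPM in A431 and 12.5 to 35.4 CPM in HaCaT, and CD68, a lysosomal protein found in many cells, reached 82.0 to 170 CPM of it in A431. LYZ stood at 0.541 to 5.19 CPM over the 16 libraries and CD14 at 0 to 3.62 CPM, with 1.03 to 3.62 CPM in A431. The other 7 markers, PTPRC, CSF3R, MPO, FCGR3B, ITGAM, CD3E and CD79A, were at most 0.276 CPM in any library. LYZ at 1.84 ± 0.38 (FDR 0.0108) and CD68 at 1.15 ± 0.25 (FDR 0.0126) were called higher with YAP5SA than with EV in HaCaT, where S100A9 was lower. Their part in the S100A8 and S100A9 values was not tested.

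Of 12 other S100 family genes in the table, 4 passed the filter: S100A3, S100A13, S100P and S100PBP, which encodes a binding protein of S100P. None of them was called by edgeR in the siYAP or YAP5SA comparisons, where at most 1 of the 4 had an unadjusted p under 0.05. Their values lay at S100P -1.24 ± 0.38 (FDR 0.0790) for siYAP in HaCaT and at S100A13 0.44 ± 0.26 in both lines. S100P, a secreted ligand of AGER, was 195 to 292 CPM in A431 and 14.3 to 89.2 CPM in HaCaT, and the line difference was 2.27 ± 0.21 (FDR 5.58e-07). In HaCaT S100P was higher with YAP5SA than with siYAP, at 1.54 ± 0.29 (FDR 0.000375), and EV at 89.2 CPM exceeded siCTRL at 46.6 CPM.

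Among 18 binding partners and receptors of S100 proteins, 16 were tested. The shares of all genes called, against which the counts of this list and the next 2 are to be read, were 5.6% and 5.67% for siYAP in A431 and HaCaT, 0% and 13.6% for YAP5SA, 34.6% and 60% for YAP5SA against siYAP, and 60.6% between the lines. Of all 14673 genes, edgeR gave an unadjusted p under 0.05 to 3264 and 2997 for siYAP in A431 and HaCaT. For YAP5SA in A431 that number was 828. siYAP called 0 partners in A431, where edgeR gave 3 an unadjusted p under 0.05, and 1 in HaCaT, ALCAM, an adhesion molecule, at 0.65 ± 0.15 (FDR 0.0216). YAP5SA called 0 in A431, with 1 at an unadjusted p under 0.05, and 4 in HaCaT. In HaCaT BSG, a receptor of S100A9, rose by 0.84 ± 0.16 (FDR 0.00851), while ALCAM at -0.80 ± 0.14 (FDR 0.00560), COPS5 at -0.64 ± 0.14 (FDR 0.0125) and the annexin A2 and S100A10 scaffold AHNAK at -0.82 ± 0.26 (FDR 0.0493) fell. YAP5SA against siYAP called 4 higher and 3 lower in A431, ANXA2 among the higher ones at 0.72 ± 0.16 (FDR 0.00329), and 7 higher and 4 lower in HaCaT, with FABP5, a fatty acid carrier that binds S100A7, at 3.96 ± 0.21 (FDR 7.05e-09) and ANXA1 at 1.92 ± 0.15 (FDR 1.40e-07). FABP5 in HaCaT was 1.46 to 2.77 CPM in the siRNA libraries and 32.6 to 40.3 CPM in the vector libraries, EV included. The line comparison called 6 higher and 6 lower in A431, with FABP5 and PLAT, the tissue plasminogen activator, higher.

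Of 41 genes of the epidermal differentiation complex and its edges, other than S100 genes, 16 were tested. siYAP called 0 in A431, where edgeR gave 3 an unadjusted p under 0.05, and 2 in HaCaT, against 5.67% of all genes, both higher: FLG, the filaggrin gene, at 2.24 ± 0.39 (FDR 0.00561) and HRNR, hornerin, at 1.43 ± 0.37 (FDR 0.0389). FLG in HaCaT was 40.2 CPM in siCTRL, 167 to 221 CPM in siYAP, 108 CPM in EV and 209 to 363 CPM in YAP5SA. YAP5SA in HaCaT called FLG higher at 1.46 ± 0.37 (FDR 0.0228) and TCHH, trichohyalin, lower at -1.40 ± 0.33 (FDR 0.0186), and called 0 in A431, with 2 at an unadjusted p under 0.05. Against siYAP, YAP5SA called 1 in A431, THEM4, and 5 in HaCaT, 3 of them lower, against 34.6% and 60% of all genes. IVL, involucrin, was among these at -2.83 ± 0.42 (FDR 5.34e-05). Tested genes of this list under the logCPM threshold, such as RPTN with a logCPM of 0.742, could not be called. On FDR under 0.05 alone 4 of 16 passed in A431, 11 in HaCaT and 13 between the lines. The share of all genes on FDR alone is not given here. The line comparison called 1 higher and 4 lower in A431, where FLG was at most 0.551 CPM in every library.

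The list of epithelial alarm and antimicrobial genes had 24 genes in the table and 18 tested. siYAP called 1 in A431, LCN2, the siderophore-binding lipocalin, which was 140 CPM in siCTRL and 49.1 to 65.5 CPM in siYAP, at -1.30 ± 0.33 (FDR 0.0401). In HaCaT siYAP called 0, where edgeR gave 2 an unadjusted p under 0.05. YAP5SA called 0 in A431, with 4 at an unadjusted p under 0.05, and 3 in HaCaT, against 13.6% of all genes, all higher: RNASE7, an antimicrobial ribonuclease, at 2.68 ± 0.61 (FDR 0.0152), IL1B at 1.18 ± 0.29 (FDR 0.0212) and KRT17 at 0.87 ± 0.27 (FDR 0.0481). YAP5SA against siYAP called 4 higher and 3 lower in A431, and 10 higher and 1 lower in HaCaT, against 34.6% and 60% of all genes. CXCL8, a neutrophil attractant, was lower in A431 at -2.04 ± 0.27 (FDR 0.000101) and higher in HaCaT at 5.87 ± 0.35 (FDR 1.78e-08), where it was 0.491 CPM in siCTRL, 0.859 to 1.21 CPM in siYAP, 47.8 CPM in EV and 45.3 to 81.1 CPM in YAP5SA. The line comparison called 11 higher and 1 lower in A431, against 60.6% of all genes, IL1A and SERPINB3 among the higher ones.

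For the 3 members with the widest spread, the genes with the most similar profile were taken by the root mean square difference of log2(CPM + 0.5) over 16 libraries, after each line's mean was subtracted. For S100A7 these were MYZAP at 0.521, TBL1X at 0.546 and FUT9 at 0.548. For S100A8 they were SAMD9 at 0.410, UHMK1 at 0.412 and TMTC3 at 0.438. For S100A2 they were FAS at 0.166, FAM72A at 0.198 and PNP at 0.217. These are descriptions over libraries that share lines and arms.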

How the data were processed

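The data are RNA-seq of 8 A431 and 8 HaCaT libraries, which were grouped by line and treatment from the sample labels. The authors deposited estimated counts per gene, made with RSEM on the RefSeq gene model from paired 100 bp reads after trimming to 75 bp. The submitters' processing notes name RSEM 1.2.11 and hg19, and the paper's methods give another RSEM version. The labels call the treated samples triplicates without naming separate cultures, and the methods call them biological, so p values measure the spread between these libraries. Libraries held 18115624 to 46791673 read pairs.

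After rounding, edgeR 4.0.16 (R 4.3.3) was applied to the genes whose mean exceeded 10 counts over the libraries. A quasi-likelihood model held all 8 groups, with TMM factors of 0.914 to 1.07, and left 8 residual degrees of freedom. The prior count was 0.125. The standard error is the size of the log2 fold change over the square root of F. Of the genes tested, 12237 had a logCPM above 1. DESeq2 1.42.0, other filters, each line alone, siCTRL and EV as joint controls, a replicate block and omission of each treated library were alternatives. Replicate numbers were taken to pair only the YAP5SA libraries of the 2 lines, where the deviations of same-numbered libraries from their group means correlated at 0.162 to 0.398 in all 3 pairs over 12237 genes; a block for those was added after the data were seen. The script was tested on simulated data. For siYAP against siCTRL, 37% of simulated log2 changes of size 1 were called in A431 and 36% in HaCaT. Of those of size 2, 81% were called in each line. A change of 2-fold that is not called may thus have been missed. Tables were summarised in Python 3.11.15 with pandas 2.3.3, numpy 2.4.6 and matplotlib 3.10.9.

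Transcript lengths came from GENCODE on GRCh38 as the median over transcripts with the longest coding sequence, and promoter sequences and gene order from RefSeq on GRCh38.p14, which differs from the build of the counts. Named genes were all members, the tested S100 genes, YAP1 and EGFR, up to 4 called genes of largest change per list and comparison, and the 3 genes of most similar profile. The members, lists and markers were chosen with earlier results of these data known. EGFR was 750 to 1357 CPM in A431 and 297 to 557 CPM in HaCaT. Symbols that a spreadsheet had turned into dates, 28 in all, were kept in the totals.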

Additional observations from a re-analysis of the deposited data

Results flagged for a closer look

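All 10 members were examined in both arms. In 2 cases the 3 treated A431 libraries lay on one side of their control and the 3 treated HaCaT libraries on the other. How often this occurs over all tested genes was not counted. S100A2 with siYAP was above siCTRL in A431 and below it in HaCaT, and the difference between the lines was 0.84 ± 0.36 on the log2 scale (edgeR, unadjusted p = 0.0345, FDR 0.381). S100A7 with YAP5SA was above EV in A431 and below it in HaCaT, and the difference was 3.56 ± 0.95 (edgeR, unadjusted p = 0.00245, FDR 0.0735). Neither difference passed the threshold over all genes, and each control is 1 library.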

How the results depend on the processing

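Of 1348 log2 fold changes of members under the alternatives, 65 changed sign, and 2 of these involved a called value: relative to each arm's own control, YAP5SA against siYAP in HaCaT turned to -0.15 for S100A9 and to -0.60 for S100A10. Under that setting the count of called members went from 4 to 1 in A431 and from 7 to 1 in HaCaT. For siYAP in A431 the count went from 2 to 1 with each line fitted alone, with a filter of more than 10 counts in each library, and with siCTRL and EV as joint controls. For siYAP over both lines it was 1 with more than 10 counts in every library, and for siYAP in HaCaT it went from 0 to 3 with joint controls. For YAP5SA in HaCaT it went from 2 to 0 with the line fitted alone. DESeq2 gave 1 in place of 0 for YAP5SA over both lines and for the line difference of each effect. On leaving out a library, YAP5SA in HaCaT gave 0 to 5, with 5 without HaCaT replicate 1, 1 without replicate 2 and 0 without replicate 3. YAP5SA over both lines gave 0 to 3, with 3 without A431 replicate 1 and 2 without HaCaT replicate 1, and the line difference of the YAP5SA effect gave 0 to 1, with 1 without A431 replicate 1 and 1 without HaCaT replicate 1. The causes were not tested. Except for the setting relative to each arm's own control, these counts stand without the share of all genes called under the same setting. They tell which calls depend on the processing. Requiring more counts removes S100A7 and S100A8 from the test.

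Same-numbered libraries of the other group pairs had correlations of -0.06 to 0.26, with 2 of 9 over 0.1, so those numbers were not taken as pairs. With the replicate block across the YAP5SA libraries of both lines, chosen after the data were seen, YAP5SA over both lines called 2 members in place of 0 and the line comparison 6 in place of 5, and no other call changed. Another replicate block gave each number 1 shared effect over all 16 libraries, the YAP5SA libraries included. Controls without a number in the labels were entered as replicate 1. With this block siYAP in A431 called 3 members in place of 2, with S100A6 added at 0.87 (FDR 0.0454). YAP5SA against siYAP called 5 in place of 4 in A431, with S100A10 added at 0.58 (FDR 0.0361), and 7 in HaCaT as before. No block was fitted for the remaining comparisons, whose controls carry no number in the labels. S100A7 and S100A8 held as few as 5 and 2 counts in a library, which limits what can be seen of them, and intervals for the single control libraries come only from the spread of the triplicates.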
